A study of Brassica napus with 33 samples.

Results

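Roots of oilseed rape (Brassica napus cv. Trezzor, wild type) deprived of manganese (Mn deprivation) were compared with roots of plants kept on complete nutrient solution and harvested on the same day. The libraries were chosen by their titles, and comprised 3 libraries of Mn deprivation and 3 of the 22-day control, or 6 of the 33 libraries of the series. All plants had first grown for 24 days in hydroponics with complete solution. The deprived plants then received a solution lacking manganese alone, while control plants kept the complete one. The titles of the control libraries give 22 days for this second period, and the libraries of Mn deprivation carry the same planting and harvest dates. The study describes its replicates as pools of plants. Roots deprived of chlorine (Cl deprivation, 3 libraries) or cobalt (Co deprivation, 3 libraries) came from the same harvest and are used here to place the values of Mn deprivation. They were also part of the fit, so their spread between replicates enters the standard errors and p-values given for Mn deprivation against the control. RNA was selected on its poly(A) tail and sequenced with strand information, and the values are counts of read pairs per gene. The manganese content of the plants was not analysed here, so how far the roots were depleted is not known from these data.

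Manganese is the metal of the water-splitting complex of photosystem II and of a mitochondrial superoxide dismutase. In Arabidopsis roots it enters through transporters of the NRAMP family (natural resistance-associated macrophage proteins) and of the zinc/iron permease family, which also carry iron and zinc. Cation efflux proteins and proteins with the DUF125 domain, the domain of the vacuolar iron transporters of yeast and Arabidopsis, move metals into the vacuole, and proteins of the UPF0016 family supply manganese to chloroplasts and the Golgi in Arabidopsis. The comparison therefore asks which root transcripts, and which transport genes among them, differed after manganese was withdrawn.

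The 12 libraries of the harvest held between 11765941 and 22053289 counts on genes. Control replicates 1 and 2 were nearly the same library: over 51500 genes their counts varied 1.28 times as much as sampling alone would give, against at least 4.99 times for each of the other 32 pairs of replicates in the series. They were kept as separate replicates, and the counts against the control and of the main gene groups are also given with their counts summed to 1 library. On the first principal component (28.2% of the variance), Mn deprivation replicate 1 lay at −221, replicates 2 and 3 at −57.1 and 5.58, and the controls between 50.7 and 107. On the second (13.4%), control replicate 3 lay at −189, far from control replicates 1 and 2 at 67.6 and 66.7. By the same measure of variance over sampling, control replicates 1 and 2 were nearer to Mn deprivation replicate 3 (6.32 and 6.55) than to control replicate 3 (12.98 and 13.0). Unmapped read pairs made up 11.9%, 7.45% and 10.4% of the libraries of Mn deprivation and 6.90%, 6.99% and 8.14% of the controls, and the part of this difference in the results was not tested. The 5 Nar2 genes used as root markers were present in all 12 libraries, and the only leaf marker listed, a photosystem I subunit gene (BnaA01g28200D), stayed between 0.934 and 2.42 CPM. CPM here are counts scaled to a common library size. That gene stood at 1.88, 1.4 and 1.54 CPM in the controls and at 1.19, 0.934 and 1.2 CPM under Mn deprivation. In whole roots, fewer cells of a type and less RNA per cell cannot be told apart.

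No gene was called differentially expressed under Mn deprivation: 0 of 54251 genes tested (0%) reached an adjusted p of 0.05 in edgeR's quasi-likelihood test with Benjamini-Hochberg adjustment. At an unadjusted p of 0.05, 6326 genes (11.7%) passed, 3740 higher (6.89%) and 2586 lower (4.77%). With control replicates 1 and 2 summed, 0 genes were called and 4040 of 55251 (7.31%) passed unadjusted. Without Mn deprivation replicate 1, which stood apart on the first component, the unadjusted count was 2623, and without control replicate 1 or 2 it was 4161 or 4172. Leaving out another library raised it, to 6516 or 8031 without Mn deprivation replicate 2 or 3 and to 6576 without control replicate 3. The count depended on the test. The likelihood ratio test of edgeR, which the study used for its own calls, called 182 genes (0.335%). DESeq2 also called 182 (0.335%), and limma's voom with group variance weights (voom below) called 1 (0.00184%). The likelihood ratio test and DESeq2 shared 151 of these genes, 83.0% of either list. With the controls summed they called 37 (0.067%) and 34 genes (0.0615%) and shared 27, which were 10 higher and 17 lower.

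The size of change that could have been seen was set by the spread between replicates, estimated over all 4 conditions of the harvest. The median standard error of a log2 fold change was 0.25, so that the 95% confidence interval of a median gene reached 0.542 (1.46-fold) to either side. To be the only gene called among 54251, a gene needed an unadjusted p of 9.2e-07. For the median gene this took an estimated change of 2.28 on the log2 scale (4.84-fold). The requirement eased when many genes changed together. It was 1.82 for a gene called among 10, 1.43 among 100 and 1.09 (2.12-fold) among 1000. An estimated 4-fold change would have been called in 40.2% of genes if alone and in 86.8% if among 1000. For an estimated 2-fold change the shares were 0.258% and 43.9%. These limits hold for the estimate, and a true change of that size could be estimated lower and be missed.

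Expression level moved these limits. Genes with a mean of 4 to 6 log2 CPM needed the smallest estimated change, 1.58 if alone. Those under 0 log2 CPM needed the largest, 4.67. With control replicates 1 and 2 summed, the requirement over all genes rose to 2.79 if alone and 1.28 among 1000. The estimated changes were small beside them, with a median absolute log2 fold change of 0.24. Of the genes tested, 2350 (4.33%) differed by at least 1 on the log2 scale, 1169 higher and 1181 lower, and 229 differed by at least 2.

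**Figure D1:**
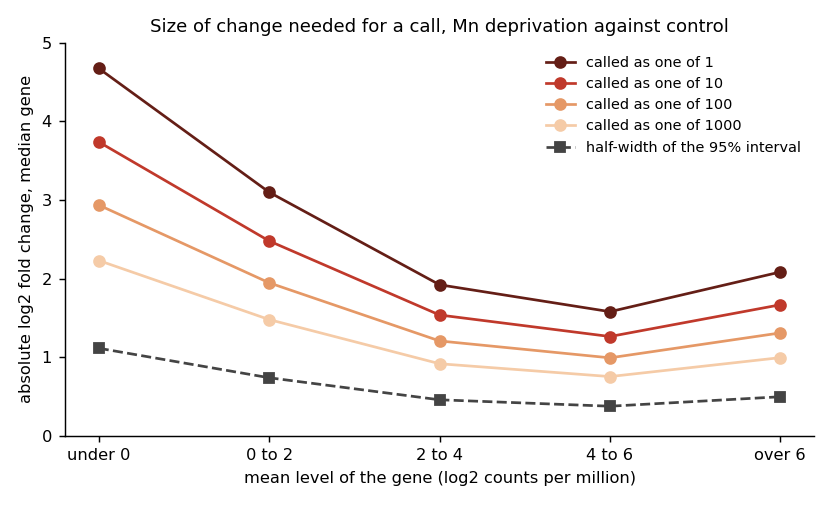
Absolute estimated log2 fold change that the median gene of each expression class needed to be called at an adjusted p of 0.05. Lines are for a gene called alone or among 10, 100 or 1000 genes, and the x axis is mean log2 CPM. Dashed squares give how far the 95% interval reaches to either side. The lines are lowest at 4 to 6 log2 CPM, where a gene called alone needed 1.58.

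The genes with the smallest p are described next, in order of direction, with their TMM-scaled CPM and log2 fold changes ± standard error (n = 3 libraries a group). BnaA02g21730D ranked first. It stood at 77.1, 70.7 and 99.6 CPM in the controls and at 26.9, 17.0 and 23.5 CPM under Mn deprivation, so the groups did not overlap. Its log2 fold change was −1.88 ± 0.21 (3.67-fold lower, 95% interval −2.34 to −1.41, adjusted p = 0.0741). Cl deprivation resembled the controls for this gene (92.2 to 95.7 CPM), and Co deprivation lay between (31.4 to 47.1 CPM). It passed the threshold with voom, without the filter on low counts and with the replicate block. The likelihood ratio test and DESeq2 called it both with the 3 controls kept and with control replicates 1 and 2 summed. In the quasi-likelihood test with the controls summed it had an adjusted p of 0.305. The sources used here give no annotation for it.

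BnaA03g55830D ranked second, also without annotation. Its CPM was 11.5, 10.4 and 9.85 in the controls and 3.86, 4.90 and 5.04 under Mn deprivation, a log2 fold change of −1.20 ± 0.15 (adjusted p = 0.0960). These 2 genes were the only ones at an adjusted p of 0.10 or less.

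Of the 12 lower genes with the smallest p, 2 carried an annotation. BnaA02g22130D, listed as a cation transporter in the Na symport group, stood at 71.0, 63.8 and 36.3 CPM in the controls. Under Mn deprivation it stood at 2.53, 8.64 and 12.8 CPM, with replicate 1 lowest. Its log2 fold change was −2.84 ± 0.44 (adjusted p = 0.173), and −2.42 without Mn deprivation replicate 1. Cl and Co deprivation lay between the groups, at 29.3 to 36.5 and 11.6 to 18.5 CPM. BnaC03g56350D, a glycoside hydrolase of family 3, a family of enzymes that split sugar chains, went from 5.76, 6.78 and 7.46 CPM in the controls to 2.39, 3.03 and 3.28 CPM, a log2 fold change of −1.20 ± 0.20.

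BnaC02g29240D, which has no annotation here, stood at 96.1, 91.8 and 64.1 CPM in the controls and at 3.37, 13.1 and 18.3 CPM under Mn deprivation. As with BnaA02g22130D, Mn deprivation replicate 1 and control replicate 3 were the lowest of their groups. The estimate was −2.86 ± 0.44 (log2). BnaA07g10200D had the largest negative estimate of the 12, −3.12 ± 0.51, at only 0.0799 to 0.211 CPM under Mn deprivation against 1.18 to 1.85 CPM. The other 7 (BnaC03g09490D, BnaC09g48280D, BnaC07g13390D, BnaC04g35970D, BnaA04g23480D, BnaA05g19580D and the second-ranked BnaA03g55830D) had log2 fold changes from −1.74 to −0.84.

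Of the 12 higher genes with the smallest p, BnaA01g28660D ranked first and was the only one annotated. It encodes an oxoglutarate/iron-dependent dioxygenase, a class of enzymes that use iron and oxygen to oxidise small molecules. Its CPM was 8.82, 8.67 and 8.39 in the controls and 25.5, 17.3 and 15.8 under Mn deprivation, with replicate 1 highest. The log2 fold change was 1.18 ± 0.17 (adjusted p = 0.173), and Co deprivation stood in the same range as Mn deprivation, at 17.2 to 18.8 CPM.

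BnaA03g47790D stood at 4.65, 4.40 and 3.92 CPM in the controls and at 19.6, 20.4 and 13.8 CPM under Mn deprivation. The groups were far apart, and its log2 fold change was 2.05 ± 0.32. BnaA06g06490D had the largest estimate of the 12, 2.25 ± 0.39, at 0.280 to 0.695 CPM in the controls and 1.76 to 3.58 CPM under Mn deprivation. BnaC04g04830D (2.16), BnaA05g05420D (2.14), BnaC09g11880D (1.94), BnaCnng44410D (1.67), BnaA01g21050D (1.67), BnaA03g42880D (1.62), BnaAnng29830D (1.21), BnaA03g47220D (0.89) and BnaA03g44050D (0.81) made up the rest, given as log2 fold changes.

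All 24 of these genes had every library of Mn deprivation on one side of every control, a pattern shown by 20.9% of all genes tested. The 24 were picked by their p in the same libraries, so this pattern follows largely from the choice and adds no separate evidence. Their adjusted p ran from 0.0741 to 0.294.

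**Figure D2:**
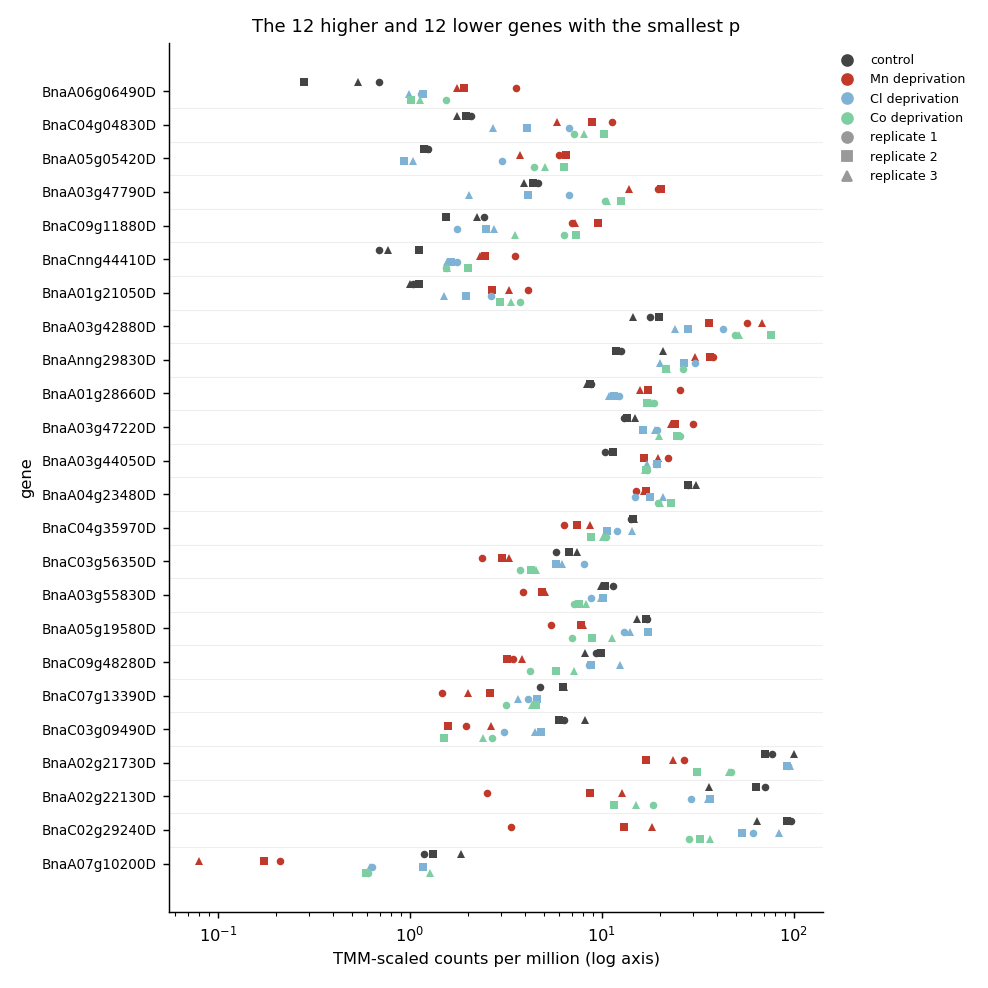
TMM-scaled CPM (log axis) in each of the 12 libraries of the harvest for the 12 higher and 12 lower genes with the smallest p, ordered by log2 fold change. Colours mark conditions and symbols replicates. In each gene the libraries of Mn deprivation lie on one side of the controls, and for BnaA02g21730D the libraries of Cl deprivation lie at 92.2 to 95.7 CPM, with the controls.

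The study's list of ion transport genes was then examined. Its 302 genes in 21 groups had been drawn by the authors from genes that responded to other deprivations after a shorter time, in other libraries of this series. Of these, 278 passed the filter on low counts. None was called by the quasi-likelihood test (0 of 278), while the likelihood ratio test called 7 and DESeq2 8, each beside 0.335% of all genes. At an unadjusted p of 0.05, 20 were higher and 36 lower, together 20.1% of the list beside 11.7% of all genes. With the controls summed, 14 were higher and 27 lower, where 4.36% and 2.95% of all genes did so. Without Mn deprivation replicate 1 they numbered 14 and 20, where 1381 and 1193 of the 54251 genes did so. The median log2 fold change of the list was −0.12, against 0.00 over all genes. It was lowest in the Fe/Mn group (−1.61, 4 genes tested) and highest in the Cu group (0.37, 8 genes). The Fe/Mn median was −1.04 with the controls summed, and the Cu median 0.10 without Mn deprivation replicate 1.

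**Figure D3:**
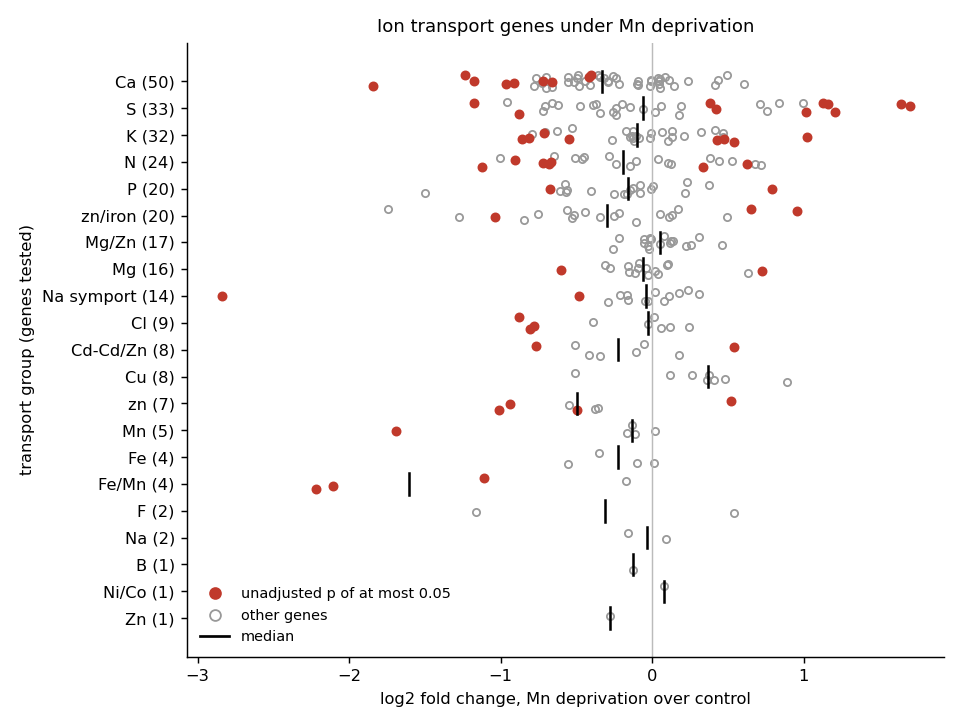
Log2 fold change under Mn deprivation of the 278 ion transport genes tested, by transport group with the number of genes in parentheses. Filled points passed an unadjusted p of 0.05 and bars are medians. No point passed the adjusted threshold, and the Fe/Mn group has the lowest median (−1.61).

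The Mn group held 5 genes, and 4 of them differed little. BnaAnng14550D, a member of the NRAMP family of divalent metal importers, stood at 12.7, 12.7 and 15.5 CPM in the controls and at 14.5, 10.2 and 13.3 CPM under Mn deprivation. The groups overlapped, and its log2 fold change of −0.11 had a 95% interval from −0.49 to 0.26. The UPF0016 genes BnaC04g29970D, BnaCnng04610D and BnaA09g28600D had log2 fold changes of 0.02, −0.17 and −0.14, with intervals that together spanned −0.47 to 0.30. A 2-fold change lay outside the interval of each of these 4 genes.

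The fifth, BnaCnng31720D, a cation efflux protein, stood at 8.26, 8.39 and 1.54 CPM in the controls and at 1.97, 2.33 and 1.28 CPM under Mn deprivation. Control replicate 3 lay among the libraries of Mn deprivation, far from replicates 1 and 2. Its log2 fold change was −1.69 ± 0.56 (adjusted p = 0.377) and −1.43 with replicates 1 and 2 summed. Cl deprivation (1.30 to 2.34 CPM) and Co deprivation (1.43 to 4.1 CPM) stood near the level of Mn deprivation.

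The Fe/Mn group held 8 genes, of which 7 are annotated with the DUF125 domain and 4 passed the filter. BnaC03g44680D stood at 23.4, 26.1 and 9.62 CPM in the controls and at 3.72, 5.25 and 4.72 CPM under Mn deprivation. Its log2 fold change was −2.11 ± 0.51 (adjusted p = 0.351). BnaA03g57720D went from 14.7, 14.9 and 5.69 CPM to 2.46, 3.21 and 1.84 CPM, a log2 fold change of −2.22 ± 0.55. In both, control replicate 3 was well below replicates 1 and 2, and all libraries of Mn deprivation were lower still.

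BnaA06g14970D, the third DUF125 gene with a lower level, stood at 5.28, 6.85 and 4.62 CPM in the controls and at 2.60, 3.03 and 2.08 CPM under Mn deprivation. Its log2 fold change was −1.11 ± 0.23 (adjusted p = 0.342), and all 3 genes were called by both the likelihood ratio test and DESeq2. With the controls summed, the only transport gene these tests called was BnaA02g22130D. The fourth, BnaCnng74920D, overlapped between the groups (log2 fold change −0.17 ± 0.27). The remaining 4 genes, BnaC02g24280D, BnaA02g17720D, BnaC01g20470D and BnaA03g48860D, had at most 0.903 CPM in any control or Mn deprivation library and were not tested.

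Levels of these DUF125 genes below the mean of the controls were also seen in roots deprived of other elements. BnaC03g44680D stood at 2.55 to 5.19 CPM under Cl deprivation and at 2.1 to 11.6 CPM under Co deprivation, BnaA06g14970D at 1.95 to 2.28 and 2.25 to 3.36 CPM, and BnaA03g57720D at 1.01 to 1.39 and 0.840 to 6.92 CPM. Directly against Cl deprivation, BnaC03g44680D differed under Mn deprivation by 0.32 ± 0.53, BnaA06g14970D by 0.26 ± 0.24 and BnaA03g57720D by 1.08 ± 0.61 (log2, adjusted p = 0.809, 0.628 and 0.417). Against Co deprivation the differences were −0.52 ± 0.51, −0.06 ± 0.24 and −0.65 ± 0.55. The DUF125 gene that differed little from the control, BnaCnng74920D, was the only one of the 4 to pass an unadjusted p of 0.05 there (log2 fold change −0.62 against Co deprivation). The comparisons of Mn, Cl and Co deprivation with the control share the same 3 control libraries.

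Among 12 further genes annotated as metal-related outside the list, 2 (16.7%) passed an unadjusted p of 0.05, beside 11.7% of all genes. The NRAMP gene BnaA07g20100D stood at 14.4, 15.9 and 4.31 CPM in the controls and at 3.09, 3.15 and 3.76 CPM under Mn deprivation, again with control replicate 3 close to the deprived roots. A log2 fold change of −1.80 ± 0.62 was estimated (adjusted p = 0.377). The cation efflux gene BnaA07g37950D had a log2 fold change of −1.0 ± 0.37, with control replicate 3 (2.62 CPM) inside the range of Mn deprivation (1.60 to 3.15 CPM).

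The manganese/iron superoxide dismutase genes BnaA01g14450D and BnaC07g39340D, whose products detoxify superoxide, had log2 fold changes of 0.35 ± 0.17 and 0.12 ± 0.22. BnaA01g14450D stood at 76.5, 74.0 and 90.3 CPM in the controls and 107, 103 and 97.1 CPM under Mn deprivation, without overlap. The nicotianamine synthase gene BnaA09g15990D, for a metal chelator, differed by 0.32 ± 0.35. The zinc/iron permease BnaA09g25300D (0.06), the aminotransferase BnaA03g46070D (0.03) and the germin genes BnaC04g31260D (−0.16), BnaA06g05460D (−0.17) and BnaA04g09020D (−0.06) differed little in log2 fold change. The germin estimates of −1.32 for BnaA07g37570D and −1.11 for BnaC06g13030D rested on control replicate 3, at 35.5 and 21.1 CPM against 3.40 to 4.47 CPM in the other controls, and turned to 0.71 and 0.18 without it.

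In the zn/iron group of zinc/iron permeases, 20 of 22 genes were tested, and 2 were higher and 1 lower with an unadjusted p up to 0.05, a share of 15.0% near the 11.7% of all genes. BnaC02g09920D was at 4.58, 5.94 and 3.62 CPM in the controls and at 12, 7.65 and 7.91 CPM under Mn deprivation, a log2 fold change of 0.96 ± 0.22 (adjusted p = 0.342). BnaA02g07030D had a log2 fold change of 0.65 ± 0.28 with overlapping groups, and BnaA10g03460D −1.04 ± 0.30. The permease BnaC02g09920D was higher still under Cl deprivation, at 14.2 to 18.2 CPM.

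In the zn group, 1 of 7 genes was higher and 3 were lower with an unadjusted p up to 0.05, beside 6.89% and 4.77% of all genes. Heavy metal P-type ATPases, which pump zinc out of cells or into compartments, were found on both sides. BnaA03g50000D and BnaC07g50890D had log2 fold changes of −1.01 ± 0.26 and −0.94 ± 0.32, and BnaA07g36130D 0.52 ± 0.22. In the Cd-Cd/Zn group 1 gene was higher (BnaAnng31630D, 0.54) and 1 lower (BnaA01g06430D, −0.77) of 8 tested. Together they made 25.0%, beside 11.7% of all genes. Only the lower one passed with the controls summed, beside 7.31% of all genes. The third by p, BnaAnng30640D, had a log2 fold change of −0.51. None of the 8 Cu genes or 4 Fe genes passed. The copper ATPases BnaC09g11230D (0.38) and BnaA09g10950D (0.37) and the copper transporter BnaA10g14850D (0.41) had positive estimates, and the ferroportin genes BnaA03g00950D (−0.56), BnaC04g06820D (−0.35) and BnaC03g01300D (−0.10) negative ones. Without Mn deprivation replicate 1 the estimate of BnaC04g06820D was 0.08, and without replicate 2 that of BnaC03g01300D was 0.00.

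The Ca group, with 50 of 56 genes tested, held 9 genes at an unadjusted p of 0.05, and all 9 were lower (18.0% of those tested, beside 4.77% of all genes lower). Its median log2 fold change was −0.33. BnaA04g21850D, a calcium/proton exchanger of the CAX family that loads calcium into the vacuole, had the smallest p of them. It stood at 27.6, 26.6 and 19.4 CPM in the controls and at 10.8, 8.93 and 13.0 CPM under Mn deprivation, a log2 fold change of −1.17 ± 0.22 (adjusted p = 0.294). Co deprivation was in the same range (10.0 to 16.2 CPM) and Cl deprivation in that of the controls (19.2 to 25.9 CPM).

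BnaAnng10910D and BnaAnng10900D, cation-transporting P-type ATPases, had log2 fold changes of −1.24 ± 0.38 and −1.85 ± 0.58, with control replicate 3 lowest of the controls in each. With the controls summed, 7 genes of the Ca group were lower at an unadjusted p of 0.05 and 0 higher, beside 2.95% and 4.36% of all genes. Without Mn deprivation replicate 1, 6 were lower and 1 higher, where 1193 and 1381 of the 54251 genes did so.

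In the K group, 4 of 32 genes had higher and 4 had lower levels with an unadjusted p up to 0.05, together 25.0% beside 11.7% of all genes. Summing the controls left 2 higher and 2 lower, beside 4.36% and 2.95% of all genes. The potassium transporter BnaA07g16500D stood at 452, 456 and 335 CPM in the controls and at 207, 239 and 239 CPM under Mn deprivation (log2 fold change −0.86 ± 0.23, adjusted p = 0.363). Of 9 Cl genes tested 3 passed, beside 11.7% of all genes. All 3 were lower and annotated as voltage-gated chloride channels, among them BnaA02g28670D (−0.78). With the controls summed 2 passed, beside 7.31% of all genes. The genes with the smallest p in the other groups were BnaA10g20650D (Mg, 0.72), BnaCnng00560D (Mg/Zn, 0.26), BnaC08g48150D (P, −0.67), BnaC04g02030D (F, −1.16), BnaC02g39630D (Na, −0.16), BnaA04g26910D (B, −0.13), BnaAnng11650D (Ni/Co, 0.08) and BnaC04g51630D (Zn, −0.28), given as log2 fold changes.

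Sulphate transporters contributed the most higher genes. Of 33 S genes tested, 8 were higher and 2 lower with an unadjusted p up to 0.05, beside 6.89% and 4.77% of all genes. The group median was −0.06, and 0.09 without Mn deprivation replicate 1. BnaC02g00440D stood at 12.7, 15.4 and 13.8 CPM in the controls and at 19.3, 87.2 and 29.7 CPM under Mn deprivation. Replicate 2 was far above the other replicates, and the log2 fold change was 1.70 ± 0.43 (adjusted p = 0.357). BnaA02g10510D went from 5.42, 4.89 and 3.77 CPM to 6.60, 23.8 and 13.7 CPM (1.65 ± 0.48), with replicate 2 again highest. It stood at 17.6, 6.47 and 5.63 CPM under Co deprivation, overlapping with Mn deprivation, and at 1.90, 2.42 and 1.61 CPM under Cl deprivation.

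BnaA07g33860D, which the study also lists with sulphur metabolism, stood at 30.9, 28.1 and 34.7 CPM in the controls and at 75.1, 71.8 and 42.1 CPM under Mn deprivation (1.01 ± 0.31). Here replicate 3 was lowest. BnaA02g00410D (1.16), BnaC03g37650D (1.21), BnaC02g14670D (1.13), BnaA03g04410D (0.38) and BnaC03g05940D (0.42) had positive log2 fold changes, and BnaA07g10140D (−0.88) and BnaC07g13290D (−1.18) negative ones. With the controls summed, 6 S genes were higher and 1 lower, beside 4.36% and 2.95% of all genes. Directly against Co deprivation, 0 of the 33 S genes passed an unadjusted p of 0.05, beside 2.29% of all genes. Directly against Cl deprivation 6 were higher and 3 lower, where 14.9% of all genes passed in either direction.

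The 60 genes of sulphur metabolism listed by the study, some of them also in the S group, showed no common direction. Of 58 tested, 5 were higher and 2 lower with an unadjusted p up to 0.05, 12.1% beside 11.7% of all genes. Summing the controls left 3 higher and 1 lower, beside 4.36% and 2.95% of all genes. BnaA09g14510D, a glutathione S-transferase, had the smallest p. It stood at 7.92, 7.34 and 6.16 CPM in the controls and at 3.72, 4.09 and 4 CPM under Mn deprivation (−0.86 ± 0.19, adjusted p = 0.342). Estimates were negative for 11 of the 12 glutathione S-transferase genes and positive for all 7 PAPS reductase genes, enzymes of sulphate reduction. Over all genes 26866 were positive and 27385 negative. Only 1 gene of each class passed an unadjusted p of 0.05 (8.33% and 14.3%, beside 11.7% of all genes). Directly against Co deprivation the class medians were 0.07 and −0.11 (log2), and none passed.

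In the N group, 2 of 24 genes were higher and 5 lower with an unadjusted p up to 0.05, beside 6.89% and 4.77% of all genes. With the controls summed the counts were 1 and 3, beside 4.36% and 2.95% of all genes. The 5 lower ones were the genes of Nar2, which in Arabidopsis is the partner protein that high-affinity nitrate transporters need. They were lower in every library of Mn deprivation than in every control, a pattern of 9.44% of all genes. BnaA02g11760D stood at 156, 149 and 129 CPM in the controls and at 58.7, 65.0 and 76.1 CPM under Mn deprivation, with a log2 fold change of −1.12 ± 0.29 (adjusted p = 0.357). BnaC02g16150D (−0.91), BnaC09g26540D (−0.72), BnaA03g57010D (−0.68) and BnaC03g27680D (−0.67) followed, as log2 fold changes. These 5 genes carry the same annotation and were measured in the same libraries, so they do not give 5 separate observations.

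The Nar2 genes overlapped with the controls under Cl deprivation (BnaA02g11760D at 81.8, 119 and 154 CPM), and in 2 of 3 libraries of Co deprivation BnaA02g11760D was as low as under Mn deprivation (65.6 and 66.0 CPM, the third 129 CPM). At an unadjusted p of 0.05, 3 of the 5 passed with the controls summed, beside 7.31% of all genes. Without Mn deprivation replicate 1, 1 of the 5 passed, where 2623 of all genes did so. The ammonium transporter genes BnaA07g05760D and BnaA09g00320D had log2 fold changes of 0.63 and 0.34. They were the only 2 of 7 with this annotation to pass an unadjusted p of 0.05, beside 11.7% of all genes. With the controls summed 1 of the 7 passed, beside 7.31% of all genes. BnaA07g05760D stood at 22.4, 20.6 and 24.5 CPM in the controls and at 33.3, 40.3 and 30.6 CPM under Mn deprivation.

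**Figure D4:**
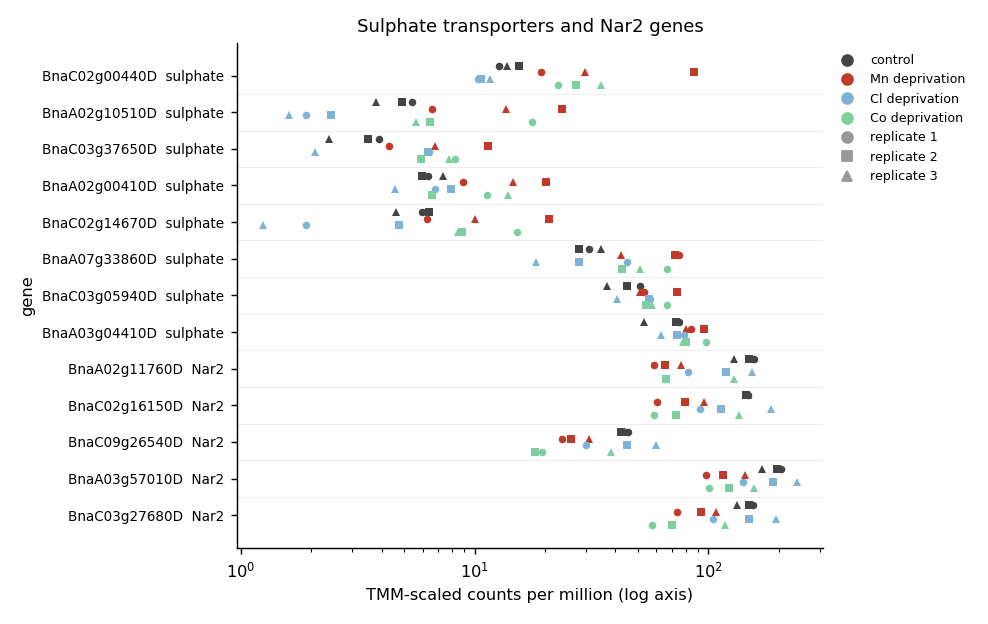
TMM-scaled CPM (log axis) in each library for the 8 sulphate transporter genes that were higher at an unadjusted p of 0.05 and for the 5 Nar2 genes. Mn deprivation replicate 2 (red square) reaches 87.2 CPM in BnaC02g00440D, and all Nar2 values of Mn deprivation lie below the controls.

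Against the other conditions of the harvest, the fewest genes passed when Mn deprivation was set against Co deprivation. Directly against Co deprivation 0 genes (0%) were called and 1240 (2.29%) passed an unadjusted p of 0.05, while the likelihood ratio test called 11, DESeq2 7 and voom 1. Unadjusted, 1100 passed with the controls summed and 1185 to 2104 when 1 library was left out, the most without Co deprivation replicate 1. Directly against Cl deprivation 1 gene (0.00184%) was called and 8088 (14.9%) passed unadjusted, while the likelihood ratio test called 690, DESeq2 763 and voom 0. The call was lost with the controls summed (0 called, 7216 passing unadjusted) and with only the conditions compared (0). The count against Cl deprivation rested on single libraries: without Cl deprivation replicate 1 it rose to 3608, without Cl deprivation replicate 3 it was 6, and without Cl deprivation replicate 2 or any library of Mn deprivation it was 0, and the unadjusted count ran from 4150 (without Mn deprivation replicate 1) to 13309 (without Cl deprivation replicate 1). The difference between these counts was not itself tested.

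The gene called against Cl deprivation was BnaA02g21730D, the first-ranked gene against the control, with a log2 fold change of −2.06 ± 0.21 (adjusted p = 0.0285) against Cl deprivation and −0.89 ± 0.21 (adjusted p = 1.0) against Co deprivation. Against the mean of the other 3 conditions, 0 genes (0%) were called and 4862 (8.96%) passed unadjusted, while the likelihood ratio test called 124, DESeq2 112 and voom 1. Unadjusted, 4085 passed with the controls summed, 1939 without Mn deprivation replicate 1 and 8711 without Cl deprivation replicate 1. The 5 genes with the smallest p there were BnaA02g21730D (−1.61 ± 0.19), BnaA03g55830D (−1.0 ± 0.13), BnaCnng73310D (2.0 ± 0.28), BnaA03g52700D (3.60 ± 0.52) and BnaAnng14350D (2.47 ± 0.36), as log2 fold changes.

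BnaAnng14350D stood at 4.21, 4.61 and 4.8 CPM under Mn deprivation and at no more than 1.80 CPM in any of the 9 other libraries. Directly against Co deprivation it was called by the likelihood ratio test (adjusted p = 4.9e-05) and DESeq2 (adjusted p = 0.00034), but not by the quasi-likelihood test. BnaA03g52700D varied widely among the deprived roots, at 6.74, 31.2 and 86.0 CPM, against 1.71 to 7.56 CPM elsewhere, so replicate 1 lay inside the range of the other conditions. BnaCnng73310D stood at 7.87, 7.65 and 4.32 CPM under Mn deprivation and at no more than 3.28 CPM elsewhere. None of the 3 is annotated in the sources used here.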

How the data were processed

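Roots were sequenced by the submitters (poly(A) selection, strand-specific paired reads). The authors mapped reads with STAR (submitters' processing notes) to the Brassica napus genome and deposited raw counts of uniquely mapped pairs per gene; the reverse-strand column of these counts was used here. Reads shared by near-identical copies of a gene in this tetraploid were discarded, so levels of such copies are uncertain. The 12 libraries of the 22-day harvest were fitted together in edgeR 4.0.16 (R 4.3.3) by filterByExpr, TMM scaling and the quasi-likelihood test, with condition as the only term. Genes with an adjusted p (Benjamini-Hochberg, 54251 genes tested) of 0.05 or less were called. Standard errors were derived from the F statistic, and CPM values were scaled by TMM factors. Alternatives used limma 3.58.1, DESeq2 1.42.0, other scalings, filters and sets of libraries. The fits were tested on simulated data with known changes. Read pairs not assigned to a gene (24.0% to 29.4% of each library) stayed out.

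The members and gene lists were chosen with earlier results of these data known. Genes named are the 12 higher and 12 lower with the smallest p, all genes of the Mn and Fe/Mn groups, the 3 with the smallest p in the zn/iron, Cd-Cd/Zn, zn, Fe, Cu and Ca groups and 1 in each other transport group, metal-annotated genes outside the list, 3 of sulphur metabolism, and 5 against the other 3 conditions. Further S, N and Nar2 genes, genes called by single alternatives and the genes of the closing section were named after their values were seen. Gene annotations came from the study's supplementary lists. Labels do not say that libraries came from separate cultures, so p-values measure the spread between these samples, which may be technical. The labels do not say that replicate numbers name a shared batch, and no library was paired.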

Additional observations from a re-analysis of the deposited data

How the results depend on the processing

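With the 3 control libraries kept, the number of genes called against the control was 182 with the likelihood ratio test and with DESeq2, 1 with voom, 1 without the filter, 11 with all 33 libraries, 1 with only the conditions compared and 2 at an adjusted p of 0.10; leaving out 1 library at a time gave 0 each time. With control replicates 1 and 2 summed, an alternative chosen after seeing the data, the likelihood ratio test called 37 and DESeq2 34. Against the other 3 conditions the counts were 124, 112, 1 and 1 (likelihood ratio test, DESeq2, voom and no filter), 5 with all 33 libraries, 1 at an adjusted p of 0.10, 0 to 8 leaving out 1 library at a time, and 80 and 52 with the controls summed (likelihood ratio test, DESeq2). Directly against Cl deprivation they were 690, 763 and 0 (likelihood ratio test, DESeq2, voom), 152 with all 33 libraries, 0 with only the conditions compared, 0 to 3608 leaving out 1 library at a time, and with the controls summed 0, 433, 421 and 0 (quasi-likelihood, likelihood ratio test, DESeq2, voom). Directly against Co deprivation they were 11, 7 and 1, and 9 and 7 with the controls summed, and 0 each time when 1 library was left out. Of the ion transport genes, the likelihood ratio test called 7 and DESeq2 8, each beside 0.335% of all genes. With the controls summed they called 1 each, beside 0.067% and 0.0615% of all genes. The cause of these differences was not tested. The 95% interval of the median gene reached 0.507 to 0.691 to either side over all alternatives. The limit was highest for genes of low level: under 0 log2 CPM the median gene called alone needed an estimated change of 4.67 (log2).

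With the replicate block, 2 genes were called against the control, 2 against the other 3 conditions and 93 against Cl deprivation. The same-numbered control and Mn deprivation libraries had correlations of their deviations of −0.0563, 0.0322 and −0.0841. Differently numbered ones ran from −0.0761 to 0.0808. With 3 libraries a group, these values cannot show whether libraries of the same number share a batch.

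Of 104 genes with a log2 fold change tested for direction, 93 kept it in every alternative. Leaving out 1 library at a time took BnaA03g46070D from −0.248 to 0.3066, BnaA04g09020D from −0.562 to 0.3295, BnaA06g05460D from −0.514 to 0.0517, BnaA07g37570D from −1.776 to 0.7089, BnaA09g25300D from −0.0813 to 0.1936, BnaAnng11650D from −0.026 to 0.2076, BnaAnng14550D from −0.2216 to 0.0257, BnaC03g01300D from −0.1655 to 0.0029, BnaC04g06820D from −1.271 to 0.077, BnaC04g29970D from −0.0158 to 0.0902 and BnaC06g13030D from −1.505 to 0.1778. With voom BnaA03g46070D was −0.0522 and BnaA04g09020D 0.2697, and with voom and the controls summed BnaA03g46070D was −0.0069. With the controls summed BnaA06g05460D was 0.0237, 0.0390, 0.0192 and 0.0870 (quasi-likelihood, likelihood ratio test, DESeq2, voom). With all 33 libraries BnaC04g29970D was −0.0046.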

Other observations

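Some annotated genes outside the transport and sulphur lists also had small p-values. They were chosen after their values were seen, and none passed the adjusted threshold in edgeR's quasi-likelihood test. Of all 1262 annotated genes tested, which include genes of those lists, 0 were called. Among these 1262, 75 were higher and 111 lower with an unadjusted p up to 0.05 (14.7% beside 11.7% of all genes). BnaA03g26330D, a chitinase of glycoside hydrolase family 18, enzymes that cut chitin, stood at 11.1, 11.0 and 3.39 CPM in the controls and at 0.913, 0.759 and 2.48 CPM under Mn deprivation (log2 fold change −2.66 ± 0.61). Control replicate 3 lay close to the highest deprived library. BnaAnng13720D, a glutamate dehydrogenase gene of ammonium recycling, stood at 10.6, 12 and 12.9 CPM and at 5.62, 6.24 and 8.47 CPM (−0.80 ± 0.19), without overlap.

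The plant peroxidase BnaA03g17800D (−0.97), the heavy metal-associated domain gene BnaA06g39500D (−0.80), the multi antimicrobial extrusion transporter BnaC05g44030D (−0.92) and the DUF677 gene BnaA07g12400D (−0.96) had negative log2 fold changes. The peptidase M20 gene BnaA03g44400D (1.03) and the CAAX protease BnaA03g43400D (1.18) had positive ones.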
